A study of Gallus gallus with 4 samples.

Results

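The genes described here encode proteins that the study's pathway annotation placed at the plasma membrane and gave the type "other", that is, neither enzyme, receptor, kinase, transporter nor ion channel. Among the 902 genes that the study listed as differing between DF-1 cells and primary chicken embryo fibroblasts (CEF), 133 had a plasma membrane location and 50 of these the type "other". After 12 genes of the junction, caveolin, actin, sarcoglycan and neural adhesion sets were left out, 38 members remained, each measured by 1 probe among 42034 gene probes. The members were chosen by the same ratios that are described here, because the study selected its list on the DF-1 to CEF difference. Their values are therefore a description, and no p-value is given for any of them.

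RNA of both cell types was hybridized together on 4 chicken oligonucleotide arrays. DF-1 RNA carried the Cy5 dye and primary CEF RNA the Cy3 dye on every array, so each array gives 1 ratio of DF-1 over CEF per probe, and dye and cell type cannot be told apart. DF-1 is a single spontaneously immortalized cell line derived from embryos of a chicken line free of certain endogenous viruses (Line 0), used here at high passage. The CEF were early passage cells from dissociated specific-pathogen-free embryos, that is, mixed primary cells and not the parent embryos of DF-1. Both were untreated and grown in the same serum-containing medium. The sample labels call the 4 arrays biological replicates, whereas the series design lists 1 sample of each cell type, so the SD between arrays may be technical. In mixed cells, fewer cells of a type and less RNA per cell cannot be told apart.

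Proteins of this kind do much of the work of the cell surface, although the annotation did not class them as enzymes or receptors. Integrins are pairs of an alpha and a beta chain that bind matrix proteins outside the cell and, through adaptors, actin inside it. Tetraspanins cross the membrane several times and gather integrins and other proteins into patches. Cadherins, immunoglobulin superfamily proteins, semaphorins and FLRT proteins mediate contact and guidance between cells, and annexins bind membrane phospholipids when calcium is present. Some members sit loosely under the class name. The integrin alpha chains are receptor chains for matrix proteins, and NIPA1 is a magnesium transporter. ZDHHC21 belongs to the palmitoyl transferase family, TMEM5 (also called RXYLT1) is a sugar transferase of dystroglycan, MYH4 is a myosin heavy chain of fast skeletal muscle, and Pdlim3 is a protein of the muscle Z-disc. The fibroblast identity of the cells could not be checked on levels, because ratios carry none. Of 12 fibroblast markers, 5 had a named probe. COL3A1, DCN, LUM and POSTN were lower in DF-1 cells, with mean log2 ratios between -4.66 and -2.09, and TWIST2 was higher, at 4.73.

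The study's probe table held the oligonucleotide of 18 of the 38 members, each 60 bases long with a GC content of 35.0 to 55.0% (median 42.5%). The 4 oligonucleotides shown include those of CD9, the lowest member, and of PTCHD1, with 1 array apart from the rest as deposited. The others are those of MYH4 and PCDH7, whose arrays fell into pairs. These 4 are the stretches of transcript that the ratios read, and each has at least 1 forward reading frame without a stop codon. So did 17 of the 18, with CDH13 the exception. An open frame over 60 bases does not show that an oligonucleotide lies in coding sequence. The oligonucleotide named MYH4 in the study's list carried the symbol MYH1 in the array annotation. Muscle myosin heavy chains are near-identical neighbors in a gene family, so this ratio cannot be assigned to MYH4 alone. In the same annotation NINJ2, OSTM1 and SLA carried locus or clone names, NRSN1 the symbol VMP, and IGSF11 no symbol. The names used here for these 5 members are those of the study's list.
CD9: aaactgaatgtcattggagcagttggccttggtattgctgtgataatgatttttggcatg
PTCHD1: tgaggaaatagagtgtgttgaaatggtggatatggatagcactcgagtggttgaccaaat
MYH4: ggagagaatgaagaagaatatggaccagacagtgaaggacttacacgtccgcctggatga
PCDH7: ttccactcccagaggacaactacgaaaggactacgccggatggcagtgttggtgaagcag

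Of the 38 members, 12 were higher and 26 lower in DF-1 cells than in primary CEF by their mean log2 ratio, and all 38 had the same sign on all 4 arrays. The study's criteria were a moderated t-statistic with p under 0.05 and a change above 2 fold, that is, a log2 ratio beyond 1 or -1. With these criteria, run here in limma with unadjusted p, 12 members were called higher, 17 were called lower and 9 were not called. Over all 42034 gene probes, 6.12% were called higher and 6.06% lower. Because these ratios selected the members, nothing is read from the difference between the shares. The same holds for the common sign on all 4 arrays, which was not counted over all gene probes. The median log2 ratio was -0.96 over the members and 0.22 over all gene probes. Beyond 4 fold lay 12 lower and 4 higher members, and beyond 8 fold 6 lower and 1 higher. Counts over all gene probes were not made at these levels. At a 3 fold threshold, 13 members were called lower and 4 higher, beside 1470 and 878 of all gene probes. The rest of the study's list also reached further down than up, from -8.17 to 5.07, so the longer low side was not particular to the members. On every one of the 4 arrays as deposited, 10 higher and 13 lower members were past 2 fold. This was not counted over all gene probes, and nothing is read from it, because these ratios selected the members. The 95 other plasma membrane genes of the study's list, mostly of enzyme, receptor, kinase or transporter type, had 33 called higher, 48 called lower and a median of -1.02.

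**Figure D1:**
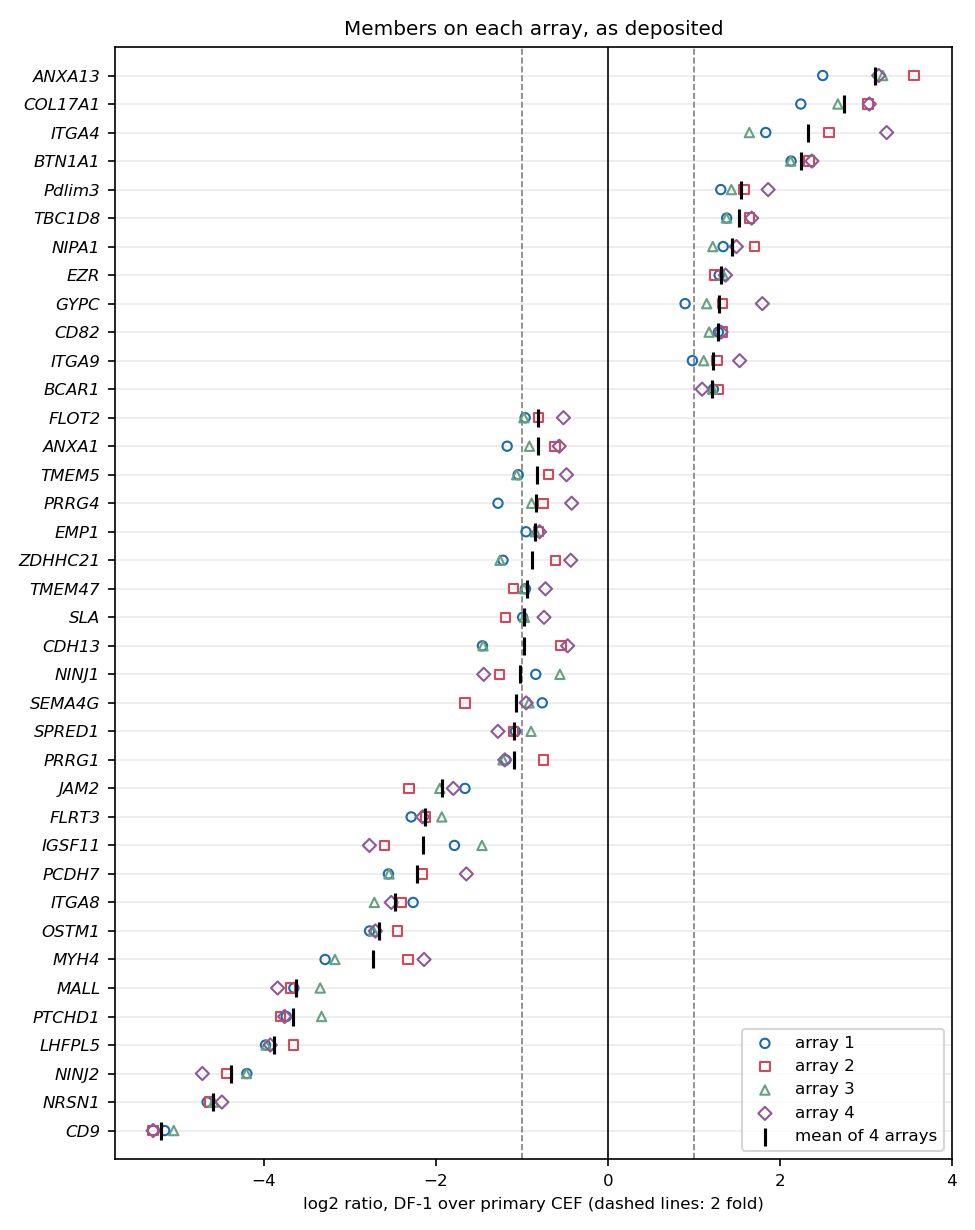
Log2 ratio of DF-1 over primary CEF (horizontal axis) for each of the 38 members (rows, ordered by mean), with 1 open symbol per array and a vertical bar at the mean of 4 arrays. Dashed lines mark 2 fold; the members run from CD9 at -5.20 to ANXA13 at 3.10, and no member has symbols on both sides of 0.

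The 4 lowest values were found among 9 members of the tetraspanin, PMP22-like, MAL, ninjurin and neurensin families, which cross the membrane more than once. Of these 9, 1 was called higher (CD82), 6 were called lower and 2 were not called (EMP1 and TMEM47), with a median log2 ratio of -3.63. This choice of families leaves out other multi-pass members, among them PTCHD1 (-3.66) and NIPA1 (1.44). The median therefore describes these 9 only, not multi-pass members in general. CD9, a tetraspanin that associates with integrins and is needed for sperm and egg fusion in the mouse, had log2 ratios of -5.16, -5.29, -5.05 and -5.29 on arrays 1 to 4. Its mean was -5.20 ± 0.12 (SD, n = 4), that is, 36.7-fold lower in DF-1 cells, and only 65 gene probes lay lower. As deposited, all 4 arrays gave nearly the same value. CD82, the other tetraspanin among the members and known as a suppressor of metastasis, had log2 ratios of 1.29, 1.33, 1.18 and 1.32, with a mean of 1.28 ± 0.07. These 2 members of the same family thus lay on opposite sides, and as deposited neither differed between arrays by more than a small part of its mean. With array medians set to 0 the arrays agreed less. CD9 then ran from -5.11 on array 1 to -5.76 on array 4. CD82 ran from 1.33 to 0.85 and was inside 2 fold on arrays 3 and 4.

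NRSN1 (neurensin), a vesicle membrane protein of neurons, had log2 ratios of -4.66, -4.63, -4.59 and -4.49, with a mean of -4.59 ± 0.08, or 24.1-fold lower in DF-1 cells. NINJ2 (ninjurin 2), an adhesion protein found in injured nerve, had -4.20, -4.43, -4.20 and -4.72, with a mean of -4.39 ± 0.24. Its relative NINJ1, which ruptures the plasma membrane in dying cells, lay far closer to 0. The NINJ1 log2 ratios were -0.84, -1.26, -0.56 and -1.44, with a mean of -1.03 ± 0.40, so arrays 1 and 3 were inside the 2 fold level and arrays 2 and 4 past it. NINJ1 was no longer called when array 2 or array 4 was left out. LHFPL5, a part of the mechanotransduction channel complex of the hair cell, had -3.98, -3.66, -3.98 and -3.93 (mean -3.89 ± 0.15), with array 2 closer to 0 than the others. MALL, a proteolipid of membrane rafts, had -3.65, -3.69, -3.35 and -3.84 (mean -3.63 ± 0.21). In the same tetraspan superfamily of claudins, LHFP and PMP22-like proteins, LHFP had a mean of -3.12 and CLDN5, the claudin of endothelial tight junctions, a mean of -2.98. EMP1 (-0.85 ± 0.07) and TMEM47 (-0.94), of the same superfamily, did not reach 2 fold.

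Of the other membrane proteins, PTCHD1, a multi-pass protein with a patched domain linked in humans to autism, had log2 ratios of -3.74, -3.81, -3.33 and -3.76, with a mean of -3.66 ± 0.22, or 12.6-fold lower in DF-1 cells. OSTM1, the partner of a lysosomal chloride transporter whose loss causes osteopetrosis, had -2.77, -2.44, -2.73 and -2.70 (mean -2.66 ± 0.15). Both were far below the 2 fold level on each array. NIPA1, a multi-pass magnesium transporter of neurons, and GYPC, a glycophorin that ties the red cell membrane to its skeleton, were higher, at 1.44 ± 0.21 and 1.29 ± 0.38. As deposited, GYPC had 0.90 on array 1 and 1.80 on array 4, the lowest and the highest of its values. With array medians set to 0, GYPC had 0.94, 1.13, 0.94 and 1.33 on arrays 1 to 4. TMEM5 was not called, at -0.82.

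Among the 8 members that join matrix, membrane and cytoskeleton, 6 were called higher and 2 lower in DF-1 cells. With array medians set to 0, 5 of these were called higher, 2 lower and 1 not at all. The integrin alpha chains divided. ITGA4, which with the beta 1 chain binds fibronectin and VCAM1, had log2 ratios of 1.84, 2.58, 1.65 and 3.24 on arrays 1 to 4. Its mean was 2.33 ± 0.73, or 5.01-fold higher, and its SD was the widest of all members, with arrays 2 and 4 above arrays 1 and 3. ITGA9, a receptor chain for tenascin, had 0.98, 1.27, 1.12 and 1.53 (mean 1.23 ± 0.24). ITGA8, which binds nephronectin in the developing kidney, had -2.27, -2.40, -2.72 and -2.52 (mean -2.47 ± 0.19), or 5.56-fold lower. No array placed ITGA8 near the other two alpha chains. ITGB1, the beta chain that each of these alpha chains can pair with, had a mean of -0.85 and was not called (-1.06 and called lower with array medians set to 0). Of 26 integrin subunits in the family, these 4 had a named probe, so other beta chains were not analysed here.

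COL17A1, a transmembrane collagen of the hemidesmosome, had log2 ratios of 2.25, 3.03, 2.68 and 3.04, with a mean of 2.75 ± 0.38, or 6.72-fold higher in DF-1 cells. Pdlim3 had 1.31, 1.58, 1.44 and 1.87 (mean 1.55 ± 0.24). Both were past 2 fold on all arrays. EZR (ezrin), which anchors membrane proteins to actin, was at 1.31 ± 0.05, and BCAR1 (p130Cas), the scaffold that SRC phosphorylates at focal adhesions, at 1.21 ± 0.08. As deposited, these were 2 of the 5 members with an SD under 0.1. With array medians set to 0, BCAR1 was at 0.998 and no longer called. Of 27 focal adhesion links and kinases, 5 had a named probe, BCAR1 included. The kinases SRC (1.68) and PAK1 (1.30) were higher as BCAR1 was, NEDD9 (-1.01), a relative of BCAR1, was lower, and FERMT2 (kindlin 2) was at -0.92 and not called (-1.13 and called lower with array medians set to 0). On the matrix side, FN1, THBS1, TGFBI, VCAN and LAMB2, the 5 of 13 listed integrin ligands and related matrix genes with a named probe, were all lower, at -5.34 to -1.32 (1 probe a gene, the first by name). The study selected most of the named genes on these same ratios, so such family counts are not a sample of the family.

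MYH4 had log2 ratios of -3.29, -2.32, -3.17 and -2.14, with a mean of -2.73 ± 0.58, or 6.64-fold lower in DF-1 cells. Arrays 1 and 3 lay lower than arrays 2 and 4 by about 1 log2 unit, and all were past 4 fold. The other skeletal muscle markers with a named probe, MYOD1 (-1.22) and MYL4 (-3.14), were lower as well, 3 of 9 listed markers with MYH4 included, and the rest were not analysed here. Among 9 neural and glial markers, 8 had a named probe, NRSN1 included, of which 7 were lower and 1, FABP7, was higher at 2.04. Of 10 endothelial markers, 4 had a named probe, of which EGFL7 (-2.84), CLDN5 and SOX18 (-1.16) were lower and ENG, at -0.80, was not called (-1.01 and called lower with array medians set to 0). All 4 of the 7 cartilage markers with a named probe were lower, at -5.27 to -1.95. The only named blood marker of 8, CD3E, was higher at 1.77, and none of 9 epithelial markers had a named probe. The study selected most named genes on these same ratios, and the marker lists were chosen with earlier results of these data known. The marker counts are therefore not a sample of the markers of a cell type. The part of other cell types among the CEF in the members' values was not tested.

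**Figure D2:**
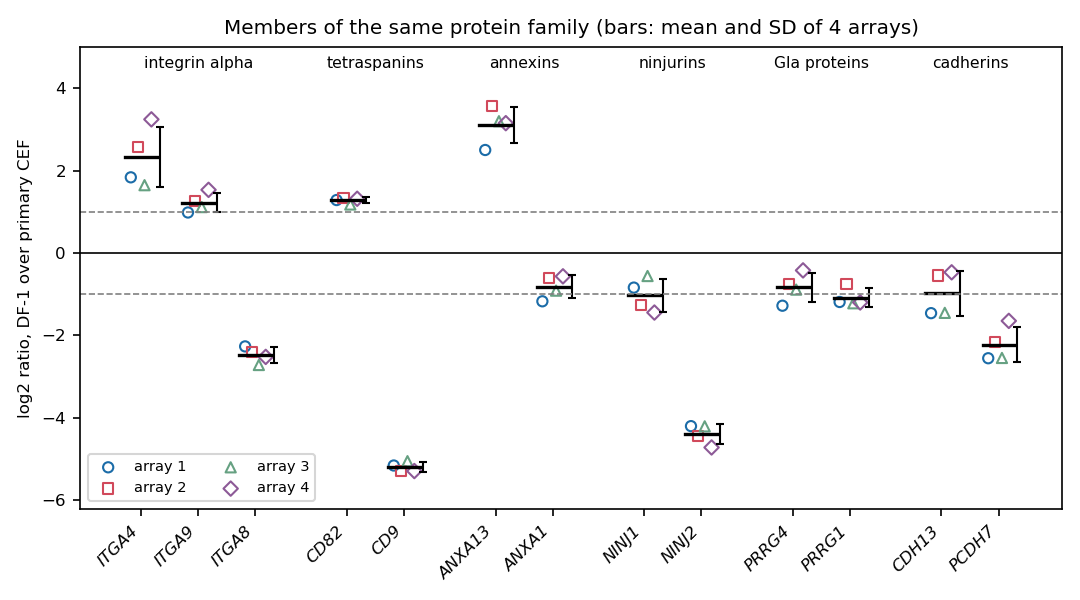
Log2 ratio of DF-1 over primary CEF (vertical axis) on each array (open symbols) for the members that share a protein family, with the mean (thick bar) and SD (error bar) of 4 arrays and dashed lines at 2 fold. Integrin alpha chains, tetraspanins and annexins have members on both sides of 0, for example CD82 at 1.28 and CD9 at -5.20, whereas ninjurins, Gla domain proteins and cadherins lie below 0 throughout.

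Of 7 members for cell adhesion and recognition, 5 were called lower, 1 was called higher and 1 was not called. PCDH7, a protocadherin, had log2 ratios of -2.55, -2.16, -2.55 and -1.65 (mean -2.23 ± 0.43). CDH13 (T-cadherin), held in the membrane by a lipid anchor without a cytoplasmic tail, had -1.46, -0.55, -1.45 and -0.47, with a mean of -0.98 ± 0.55. In both, arrays 2 and 4 were closer to 0, and CDH13 passed 2 fold on arrays 1 and 3 only. CDH11, a cadherin of mesenchymal cells and the only other cadherin of the list with a named probe, had a mean of -4.09. IGSF11, an immunoglobulin superfamily adhesion protein, ran the other way between arrays, with -1.78, -2.60, -1.46 and -2.77 (mean -2.16 ± 0.63). JAM2, a junctional adhesion molecule of endothelium, had a mean of -1.93 ± 0.28. BTN1A1 (butyrophilin), known from the milk fat globule membrane, was the higher member, with 2.13, 2.34, 2.13 and 2.37 (mean 2.24 ± 0.13), or 4.74-fold. Of 39 immunoglobulin superfamily genes 9 had a named probe, of which 2 were called higher, BTN1A1 and NEO1 (1.29), and 7 lower. This count leaves out MPZL2, an adhesion protein of the same superfamily, which was higher with a mean of 5.60 and whose accession carried its symbol in the study's qPCR gene table, not in its gene list.

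FLRT3, a guidance and adhesion protein that binds UNC5 receptors, had log2 ratios of -2.29, -2.12, -1.93 and -2.15 (mean -2.12 ± 0.15). UNC5C, a receptor of that kind, had a mean of -2.97. SEMA4G, a transmembrane semaphorin, had -0.76, -1.66, -0.92 and -0.95, with a mean of -1.07 ± 0.40. As deposited, only array 2 was past 2 fold, and SEMA4G was not called without it. With array medians set to 0, SEMA4G had -0.72, -1.86, -1.13 and -1.42, past 2 fold on arrays 2, 3 and 4. Among the 3 other named genes of the semaphorins and their receptors, SEMA3D (-3.25) and SEMA3F (-1.42) were lower and NRP2 (1.18) was higher. With array medians set to 0, NRP2 was at 0.97 and no longer called.

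The annexins lay on opposite sides. ANXA13, an annexin of epithelial cells, had log2 ratios of 2.50, 3.56, 3.20 and 3.15, with a mean of 3.10 ± 0.44, or 8.60-fold higher in DF-1 cells, the highest of the members. ANXA1, known for its part in ending inflammation, had -1.17, -0.61, -0.91 and -0.57, with a mean of -0.82 ± 0.28. As deposited, ANXA1 was past 2 fold on array 1 only and was not called. With array medians set to 0, it was past 2 fold on arrays 1, 3 and 4 (-1.13, -1.13 and -1.04). ANXA7 (-1.69) and the annexin partner S100A11 (-1.59) were lower. FLOT2 (flotillin 2), a scaffold of membrane rafts, was not called at -0.81.

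The transmembrane Gla proteins PRRG1 and PRRG4, whose outer domain is modified by a vitamin K-dependent carboxylase, had similar means. PRRG1 had log2 ratios of -1.19, -0.75, -1.22 and -1.20 (mean -1.09 ± 0.23), with array 2 alone inside 2 fold, and PRRG4 had -1.28, -0.75, -0.89 and -0.42 (mean -0.83), with only array 1 past it. As deposited, PRRG1 was called lower and PRRG4 was not called, although their ranges overlapped. With array medians set to 0, PRRG4 was past 2 fold on arrays 1 and 3 (-1.23 and -1.10), and both were called lower. Of the 4 adaptors and modifiers, TBC1D8, a Rab GTPase-activating domain protein, was higher at 1.52 ± 0.16. SPRED1, which restrains RAS signaling to ERK, was lower, with -1.08, -1.10, -0.89 and -1.28 (mean -1.09 ± 0.16). Of 3 other named dampers of growth factor signaling, IL17RD (-1.72) and GRB10 (-1.21) were lower and the phosphatase DUSP4 (1.40) was higher. SLA (-0.97), an adaptor that dampens T cell receptor signaling, and ZDHHC21 (-0.88 ± 0.42) were not called.

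The 9 members not called lay at mean log2 ratios of -0.98 to -0.81, and none of the higher members was nearer to 0 than 1.21. Just past the 2 fold level were NINJ1 (-1.03) and SEMA4G (-1.07), and just short of it CDH13 (-0.98) and SLA (-0.97). All 38 members came from the study's list, so these 9 entries of that list fell short of 2 fold in the ratios as deposited. They were not alone, since 98 of all 902 probes of that list were not called. The deposited ratios were not centered on 0, with array medians over all gene probes of -0.04, 0.20, 0.21 and 0.47 on arrays 1 to 4. With the median of each array set to 0, every member's mean fell by 0.21, the mean of the array medians, and 11 were called higher, 26 lower and 1 not at all. In that setting 4.16% of gene probes were called higher and 7.76% lower. BCAR1 ended just short of 2 fold, at 0.998, and all 9 uncalled members were called lower, FLOT2 and ANXA1 included. A shift by the same amount for all members leaves the order of the means as it was, and no mean lay near enough to 0 to change sign.

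**Figure D3:**
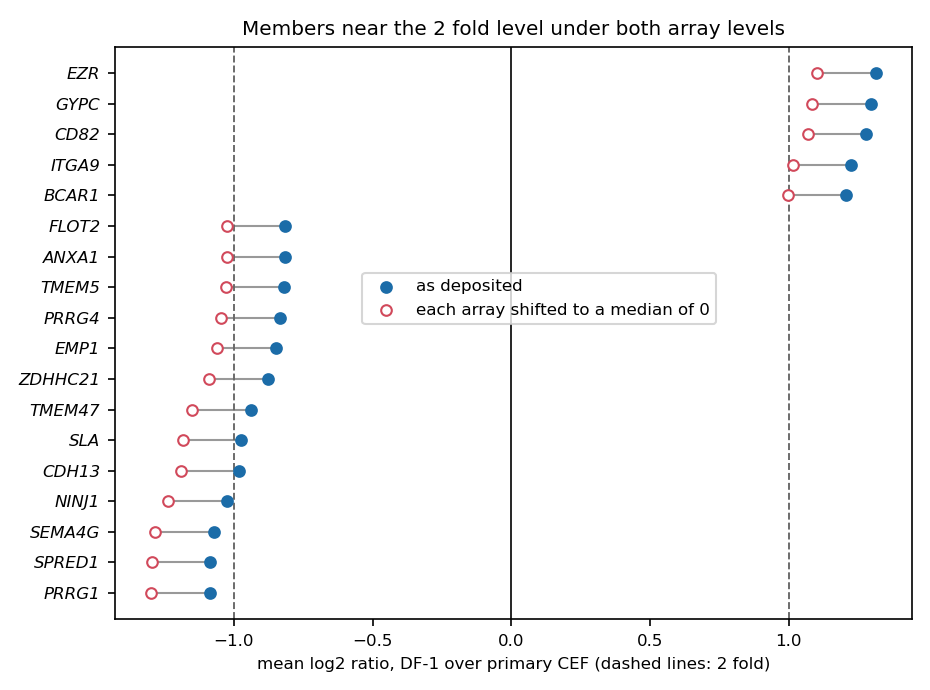
Mean log2 ratio of DF-1 over primary CEF (horizontal axis) as deposited (filled) and with array medians set to 0 (open) for the members nearest to 2 fold (rows), with dashed lines at 2 fold. The 9 members from CDH13 (-0.98) to FLOT2 (-0.81) cross the lower line with the shift, and BCAR1 ends at 0.998.

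In the deposited ratios, members varied less between arrays than gene probes in general, with a median SD of 0.23 against 0.30. Selection by p-value favors small SDs, and its part in this difference was not tested. The rest of the study's list and its other plasma membrane genes, selected in the same way, each had a median SD of 0.26. The members ITGA4, IGSF11, MYH4 and CDH13 had an SD above 0.5, and 5 (BCAR1, CD82, EMP1, EZR and NRSN1) had one under 0.1. The small SDs belong to the deposited array levels. With array medians set to 0, BCAR1 ran from 1.27 on array 1 to 0.63 on array 4. The wide members shared an order of arrays. For 28 of 38 members, array 1 paired with array 3 on one side and array 2 with array 4 on the other when the values were split at their middle, an order held by 50.4% of gene probes. After the median shift it was 26 of 38 members and 45.3% of gene probes. In the deposited ratios, all 9 higher members with this order had arrays 1 and 3 nearer to 0. Of the lower ones, 11 had arrays 1 and 3 lower and 8 had arrays 2 and 4 lower. These directions depend on the array levels and were counted on the deposited ratios only. With array medians set to 0, some higher members lost the order, among them BTN1A1 (2.18, 2.14, 1.91 and 1.90 on arrays 1 to 4). Over all gene probes, arrays 1 and 3 correlated with Pearson's r = 0.93 and arrays 2 and 4 with 0.89, and the other pairs with 0.81 to 0.86. No sample label distinguishes these pairs, and their part in the values was not tested.

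**Figure D4:**
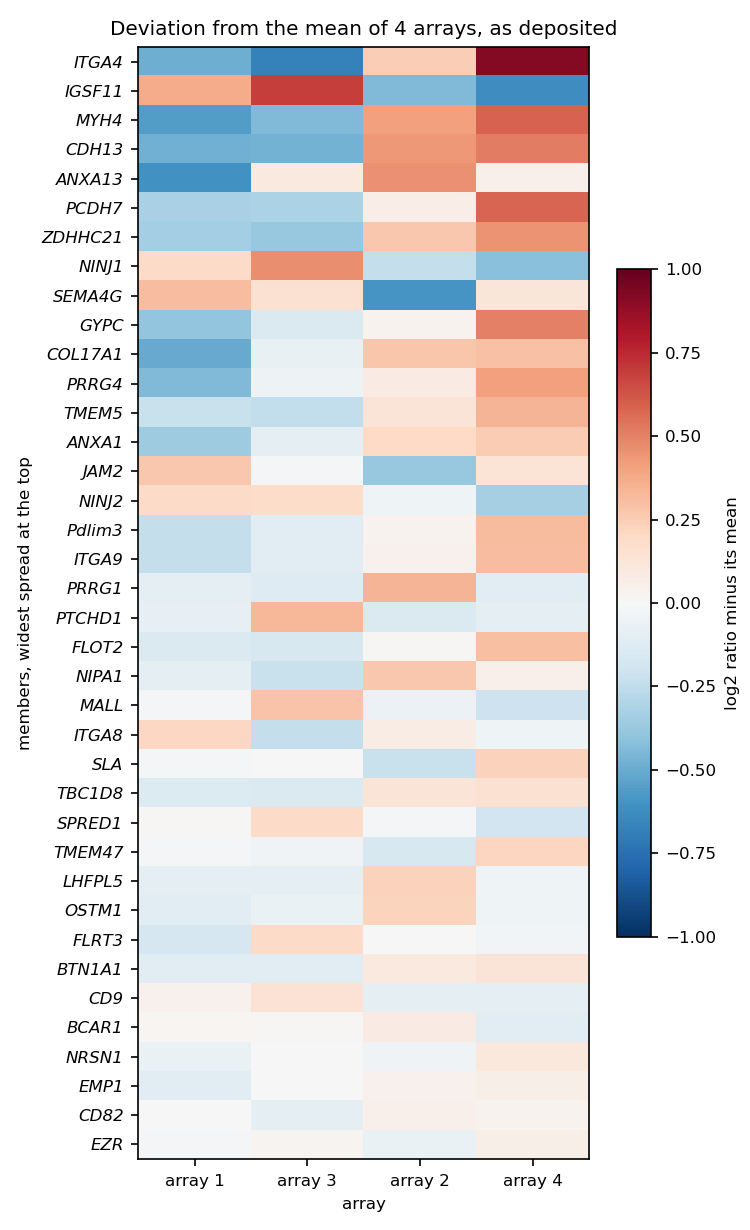
Deviation of each array's deposited log2 ratio from the mean of 4 arrays (color, in log2 units) for the 38 members (rows, widest SD at the top), with arrays 1 and 3 in the left columns and arrays 2 and 4 in the right. ITGA4, MYH4 and CDH13 are below their mean on arrays 1 and 3 and above it on arrays 2 and 4, IGSF11 and NINJ1 show the opposite, and the rows at the foot, EZR and CD82 among them, are nearly uniform.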

How the data were processed

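The authors cohybridized DF-1 (Cy5) and primary CEF (Cy3) RNA on 4 two-color arrays and deposited 1 normalized ratio (fold, DF-1 over CEF) per probe and array, together with a table of the same values as log2. The paper reports spike-in RNA controls meant to adjust for possible dye effects, background correction and loess normalization. The dye labels set the direction. Scanner intensities and normalization software versions are not given in the sources used here, so dim or saturated probes could not be filtered. The deposited columns of mean, SD and fold change hold the authors' own comparison and were not used. Ratios were taken as log2, control spots were removed (42034 gene probes of 45220 spots), and each probe's mean was fitted with limma 3.58.1 in R 4.3.3 (lmFit and eBayes, 2-sided), with an unadjusted p threshold of 0.05 and 2 fold, as in the methods. The scripts were tested on simulated data. Members were joined by accession from the study's gene list, and 36 of 38 symbols matched a RefSeq gene table (GRCg7b, names only). All members may be named, and the text turns on the 5 highest and 8 lowest means, members of shared families, members within 0.1 of the threshold and those with 1 array apart. Members and lists were chosen with earlier results of these data known. Relatives were named only where an accession paired with a symbol (951 of 42034 gene probes). Alternatives were a median shift, a common spread, other thresholds, robust variances, averaged probes, the log2 table and leaving out each array. Protein features were not run. Only 4 arrays limit the precision.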

Additional observations from a re-analysis of the deposited data

Results flagged for a closer look

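In the deposited ratios, 1 array lay far from the other 3 for 7 of 89 genes checked (3 of 38 members). For 4 independent values from a normal distribution, chance meets the criterion used in about 1 of 20 genes. The arrays here resembled each other in pairs, so that rate may not hold for them. The share over all gene probes was not counted, and nothing is read from the counts. The criterion was applied to the deposited ratios only, and which array lies apart depends on the array levels. LHFPL5 had a log2 ratio of -3.66 on array 2, against -3.98 to -3.93 on the others. PTCHD1 had -3.33 on array 3, against -3.81 to -3.74. PRRG1 had -0.75 on array 2, against -1.22 to -1.19. With array medians set to 0, no array of these members stood apart in this way. On arrays 1 to 4, LHFPL5 then had -3.94, -3.86, -4.19 and -4.40, and PTCHD1 had -3.70, -4.01, -3.54 and -4.23. PRRG1 had -1.14, -0.95, -1.43 and -1.67. Among the relatives, DUSP4 had 1.77 on array 4 (others 1.24 to 1.31) and GRB10 had -1.59 on array 1 (others -1.12 to -1.03). LHFP had -2.77 on array 4 (others -3.26 to -3.21), and PMP2, a myelin protein, had -5.69 on array 2 (others -4.63 to -4.48).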

How the results depend on the processing

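The count of members called higher, 12 as reported, was 6 with limma's treat against 2 fold and 4 at a 3 fold threshold, and 11 or 12 in the other settings. The count called lower, 17 as reported, was 26 with arrays shifted to a median of 0, 26 with a common spread added and 26 with no fold threshold, and 13 with treat or at 3 fold. Leaving out each array gave 12 members called higher each time and 16 to 20 called lower. Over all gene probes, leaving out each array gave 2253 to 2997 called higher and 2330 to 2881 called lower. Without array 2, NINJ1 and SEMA4G were lost and CDH13 was gained. Without array 4, NINJ1 was lost and CDH13, SLA, TMEM47 and ZDHHC21 were gained. Over all gene probes, 2571 were called higher and 2548 lower as reported, 879 and 1406 with treat, 878 and 1470 at 3 fold, and 12421 and 5631 with no fold threshold. The median shift gave 1749 higher and 3262 lower gene probes, and the common spread 1778 and 3264. The mean of 17 members moved by more than its SD with the median shift and of 16 with the common spread, and none changed sign in any setting run. The median shift lowers every mean by the same 0.21, so the 17 are the members with the smallest SD. No mean lay near enough to 0 for that shift to change its sign. The log2 table was added as an alternative after the data were seen and changed no call. No paired analysis was possible because each ratio already sets both cell types against each other within 1 array, so the fit is itself a within-array comparison and holds no further pairs. With 4 arrays, ratios without intensities and no dye swap, the reliability of dim probes and dye effects could not be assessed here. The spike-in controls and loess normalization that the paper reports could not be examined in the ratios used.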
